A study of Mus musculus with 6 samples.

Results

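Cadherins are the calcium-dependent adhesion molecules of the cell surface, and this account follows 32 of them through cells sorted from adult mouse hind-limb muscle. The members were picked by a rule on gene names, set with earlier results of these data known. It took every gene symbol made of Cdh or Pcdh and a number, apart from Cdh5 and Cdh15, which mark endothelium and muscle stem cells. That rule found 21 cadherins and 11 protocadherins outside the gene clusters among the 24062 genes of the table of normalised counts. RNA was sequenced from cells sorted for tdTomato, a red fluorescent protein, in C57BL/6 mice that had 3 tamoxifen treatments and were taken 10 days afterwards. Labelled cells of Tw2-CreERT2/+;R26-tdTO+ mice are called Tw2pos (n = 2 libraries) and unlabelled cells of the same genotype Tw2neg (n = 2). Labelled cells of Pax7-CreERT2/+;R26-tdTO+ mice are called Pax7pos (n = 1) and unlabelled cells of that genotype Pax7neg (n = 1). All 4 groups carry a CreERT2 allele and the tdTomato reporter and all had tamoxifen, and no group without Cre or without tamoxifen was used here. In each line the label marks cells in which the Twist2 or the Pax7 gene drove Cre when tamoxifen was given, and the cells that descend from them, whether or not the gene was still on at harvest. The study's stated purpose was to compare freshly sorted Twist2 and Pax7 cells. The labels do not say whether the 2 libraries of a group came from separate animals, so each p-value speaks only of the spread among the libraries themselves, which may be technical.

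A classical cadherin binds the same cadherin on a neighbouring cell through its outer repeats, and its tail holds p120-catenin and beta-catenin, which reaches actin through alpha-catenin. Type I cadherins such as E-cadherin and N-cadherin sort cells into tissues, and type II cadherins such as cadherin-11 do so in mesenchyme and the nervous system. Protocadherins have more of the outer repeats and tails that do not bind beta-catenin, and they are best known from the developing brain. In adult muscle, satellite cells rest between the fibre and its basal lamina and are held to the fibre by N-cadherin and M-cadherin, while fibroblast-like cells, endothelium, pericytes and Schwann cells around the fibres carry cadherins of their own.

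The members were scattered over 11 chromosomes, with 6 on chromosome 8, 5 on chromosome 14 and 5 on chromosome 15, and all 32 are annotated as protein-coding (GRCm38, GENCODE M21). Promoters of 21 members were found in RefSeq (GRCm38.p6), 24 windows in all, each running from 250 bases before a transcript start to 50 bases after it. Those of 4 members that passed the main test below are shown, since they set the start of 2 genes that were higher in Tw2pos cells (Pcdh18 and Pcdh7) beside that of 2 that were lower (Pcdh17 and Cdh23). They lie at chr3:49757267-49757566 on the minus strand for Pcdh18, chr5:57717831-57718130 on the plus strand for Pcdh7, chr14:84443313-84443612 on the plus strand for Pcdh17 and chr10:60696441-60696740 on the minus strand for Cdh23. Capitals mark CANNTG, the E-box core that basic helix-loop-helix factors such as the Twist proteins can bind, and the GC box GGGCGG or its reverse complement CCGCCC.
Pcdh18: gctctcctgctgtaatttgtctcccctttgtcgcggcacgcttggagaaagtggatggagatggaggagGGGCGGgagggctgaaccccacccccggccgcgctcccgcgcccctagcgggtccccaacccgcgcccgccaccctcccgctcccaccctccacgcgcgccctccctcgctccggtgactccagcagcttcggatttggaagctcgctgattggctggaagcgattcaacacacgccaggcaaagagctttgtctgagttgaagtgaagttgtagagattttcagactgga
Pcdh7: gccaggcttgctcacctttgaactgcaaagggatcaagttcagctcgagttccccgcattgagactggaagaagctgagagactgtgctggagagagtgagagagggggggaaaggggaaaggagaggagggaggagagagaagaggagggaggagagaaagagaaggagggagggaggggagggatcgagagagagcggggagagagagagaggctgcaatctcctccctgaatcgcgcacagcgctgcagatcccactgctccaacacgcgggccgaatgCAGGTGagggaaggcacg
Pcdh17: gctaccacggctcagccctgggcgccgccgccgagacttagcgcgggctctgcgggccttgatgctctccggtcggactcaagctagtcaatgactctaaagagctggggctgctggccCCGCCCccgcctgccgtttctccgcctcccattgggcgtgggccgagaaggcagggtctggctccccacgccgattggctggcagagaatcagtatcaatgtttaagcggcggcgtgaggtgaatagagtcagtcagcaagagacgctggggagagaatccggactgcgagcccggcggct
Cdh23: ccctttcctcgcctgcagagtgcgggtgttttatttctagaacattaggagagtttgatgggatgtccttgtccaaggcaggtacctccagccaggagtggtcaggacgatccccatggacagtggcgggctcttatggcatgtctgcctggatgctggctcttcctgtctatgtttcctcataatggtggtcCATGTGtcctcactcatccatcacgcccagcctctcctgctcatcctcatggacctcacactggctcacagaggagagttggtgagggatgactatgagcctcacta
CANNTG reads the same on both strands and was searched once, and the GC box was searched on both strands. The windows of Pcdh7 and Cdh23 held 1 CANNTG each and those of Pcdh18 and Pcdh17 none, while Pcdh18 and Pcdh17 held 1 GC box each and the other two none, so that no window shown held both. Neither motif went with the direction of the gene in these windows. CANNTG was present in 72.3% of all 32851 mouse promoters in the RefSeq table and in 14 of the 24 member windows, and the GC box in 35.7% of all promoters and 8 of the member windows. The share of G and C was 63.0% for Pcdh18, 59.3% for Pcdh7, 65.0% for Pcdh17 and 54.0% for Cdh23, beside a median of 52.7% over all promoters. A match is only a match of letters.

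The 4 Twist2-line libraries held between 10902318 and 13205751 reads, with 16508 to 17350 genes at 1 read or more, and the Pax7pos library held 6016469 reads over the genes of the CPM table (reads of a gene scaled to a common library size). Twist2, the gene that drives the label in the first line, had 99.4 and 222 normalised counts in Tw2pos libraries, against 22.0 and 23.2 in Tw2neg libraries. Pax7 stood at 303 CPM in Pax7pos cells and 0.402 CPM in Pax7neg cells. The 2 Tw2pos libraries differed from each other less than the 2 Tw2neg libraries did (chi-square per degree of freedom 13.7 in Tw2pos and 69.6 in Tw2neg), and results that rest on this are given below with and without each library. The labelled tissue was checked through marker lists, and no gene of the lists used below was at 0 in all 4 libraries: leukocyte markers summed to 1638 and 1950 normalised counts in Tw2pos libraries, against 50932 and 59484 in Tw2neg libraries. In sorted bulk RNA, fewer cells of a type and less RNA per cell cannot be told apart.

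Labelled and unlabelled cells of the Twist2 line differed in several cadherins. N-cadherin (Cdh2) and cadherin-11 (Cdh11) were 8.21-fold and 6.96-fold higher in Tw2pos cells, and the protocadherins Pcdh7, Pcdh9, Pcdh10 and Pcdh18 were also higher, by between 2.68-fold and 3.31-fold. E-cadherin (Cdh1), Pcdh1, Pcdh17 and the tip-link cadherin Cdh23 were lower, by between 2.10-fold and 5.34-fold. The comparison was made with limma on log2 of the normalised count plus 1, so that folds are on that scale and understate the change of low genes, over the 14155 genes with a mean of at least 10 normalised counts. Of the 32 members 20 reached that mean, and 10 of the 20 passed at an adjusted p under 0.05, which is 6 higher and 4 lower. Over all genes tested 38.6% passed, 18.7% as higher and 20.0% as lower, and whether the share among the members differs from that was not tested. The median log2 fold change was 0.86 over the 20 members and −0.04 over all genes tested, where the value for all genes became −0.49 when libraries were scaled by their totals. The libraries of both groups did not overlap for 16 of the 20 members, against 76.3% of all genes, a share near the background.

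**Figure D1:**
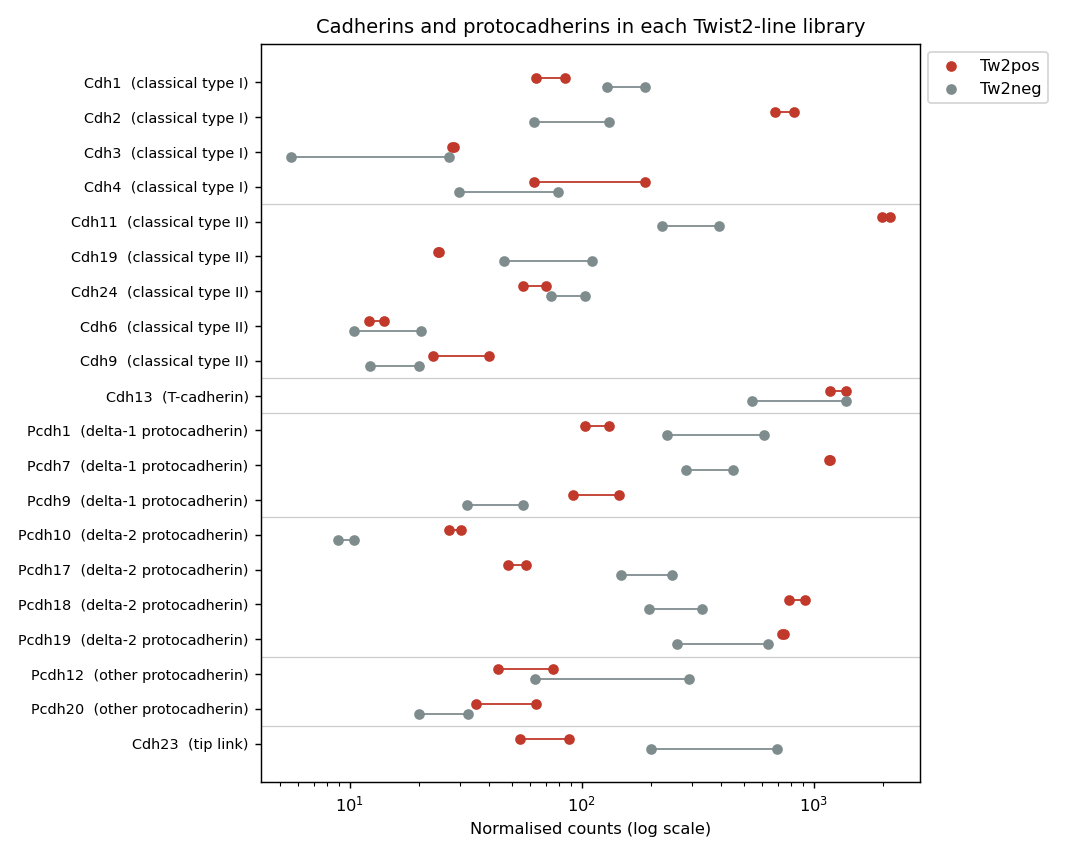
Normalised counts (horizontal, log scale) of the 20 members with a mean of at least 10, by class. Each point is a library, Tw2pos above Tw2neg in each row, and a line joins the libraries of a group. The points of Cdh11, Cdh2, Pcdh7 and Pcdh18 in Tw2pos lie to the right of the Tw2neg points of the same gene, those of Pcdh17 and Cdh23 lie to the left, and the Tw2neg lines are mostly the longer ones.

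**Figure D2:**
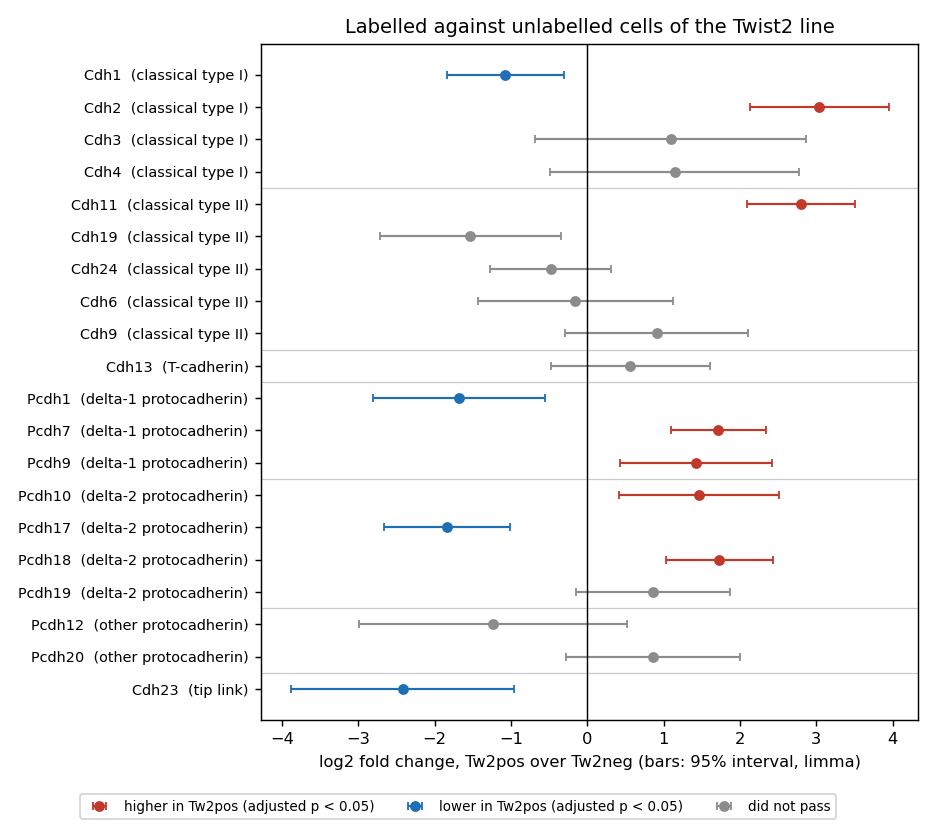
Log2 fold change, Tw2pos over Tw2neg, of the 20 members with its 95% interval from limma (2 libraries a group), by class. Red members passed as higher (6), blue ones as lower (4) and grey ones did not pass (10).

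Both directions occurred among the 4 type I cadherins. N-cadherin (Cdh2; chromosome 18, 16588877 to 16809246, minus strand), the type I cadherin of mesenchyme, nerve and muscle precursors, had 825 and 685 normalised counts in Tw2pos libraries, against 132 and 62.4 in Tw2neg libraries. Both Tw2pos libraries stood far above both Tw2neg libraries, with means of 755 ± 98.9 and 97.1 ± 49.1 (SD, n = 2 each) and a log2 fold change of 3.04 with an SE of 0.37 (adjusted p = 0.00285 by limma). E-cadherin (Cdh1; chromosome 8, 106603351 to 106670246, plus strand), which joins epithelial cells, went the other way, with 63.7 and 84.4 normalised counts in Tw2pos libraries and 187 and 129 in Tw2neg libraries. Its groups did not overlap, at 74.1 ± 14.6 and 158 ± 41.2 (SD, n = 2 each), and its log2 fold change was −1.07 (SE 0.31, limma adjusted p = 0.0408). That call was lost in 5 of the other settings tried, among them quantile normalisation (adjusted p = 0.0906) and leaving out Tw2neg replicate 1 (−0.80, adjusted p = 0.0918), Tw2pos replicate 1 (−0.87, adjusted p = 0.264) or Tw2pos replicate 2 (−1.27, adjusted p = 0.123). Epithelial markers summed to 95.6 and 79.6 normalised counts in Tw2pos libraries, against 167 and 141 in Tw2neg libraries. Of the 3 of 6 that could be tested Epcam was lower, beside 20.0% of all genes tested. The part of these markers in the difference of Cdh1 was not tested. P-cadherin (Cdh3) and R-cadherin (Cdh4), known from skin and retina, did not pass. Cdh3 had 28.05 and 27.7 normalised counts in Tw2pos libraries and 26.8 and 5.60 in Tw2neg libraries (log2 fold change 1.09, SE 0.73, limma adjusted p = 0.274), so that the Tw2neg libraries differed far more from each other than the Tw2pos libraries did. It passed as higher without Tw2neg replicate 1 (2.13, adjusted p = 0.0172), and its value was 0.05 without Tw2neg replicate 2 (adjusted p = 0.919). Cdh4 had 62.5 and 187 in Tw2pos libraries and 78.9 and 29.6 in Tw2neg libraries, and its groups overlapped (1.14, SE 0.66, adjusted p = 0.218).

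Of the 12 type II cadherins 5 could be tested, and cadherin-11 stood apart from the others in level. Cdh11 (chromosome 8, 102632095 to 102785642, minus strand), the cadherin of mesenchyme, osteoblasts and synovial fibroblasts, had 1979 and 2139.6 normalised counts in Tw2pos libraries, against 390.3 and 222 in Tw2neg libraries. Even the lower Tw2pos library was far above the higher Tw2neg library, and means of 2059 ± 114 and 306 ± 119 (SD, n = 2 each) gave a log2 fold change of 2.80 with an SE of 0.29 (adjusted p = 0.00175 by limma). Cdh19, a cadherin of Schwann cell precursors, had 24.2 and 24.1 normalised counts in Tw2pos libraries, against 111 and 46.4 in Tw2neg libraries, and just missed the threshold (log2 fold change −1.53, SE 0.48, limma adjusted p = 0.0501). It passed as lower in 6 of the other settings, including edgeR (adjusted p = 0.0479) and DESeq2 (adjusted p = 0.0193) on recovered reads, and its value was −2.15 without Tw2neg replicate 2 (adjusted p = 0.0155) and −0.91 without Tw2neg replicate 1 (adjusted p = 0.0963). Schwann cell markers summed to 1126 and 725 normalised counts in Tw2pos libraries, against 4505 and 2207 in Tw2neg libraries. Of the 7 markers 4 were lower and 1 higher, beside 20.0% and 18.7% of all genes tested. The part of these markers in the values of Cdh19 was not tested. Cdh24, another type II cadherin, had 56.1 and 70.0 normalised counts in Tw2pos libraries and 74.0 and 104 in Tw2neg libraries (−0.48, SE 0.32, adjusted p = 0.280). Cdh6, the kidney cadherin, had 14.02 and 12.1 in Tw2pos libraries, inside the range of 20.3 and 10.4 in Tw2neg libraries (−0.15, SE 0.52, adjusted p = 0.834). Cdh9, known from kidney and synapses, had 22.9 and 39.8 in Tw2pos libraries and 12.2 and 20.0 in Tw2neg libraries (0.91, SE 0.49, adjusted p = 0.189).

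T-cadherin (Cdh13; chromosome 8, 118283733 to 119324921, plus strand) has no cytoplasmic tail, sits in the membrane by a lipid anchor and binds adiponectin. It had 1182 and 1383 normalised counts in Tw2pos libraries, against 1378 and 543 in Tw2neg libraries. The Tw2neg libraries lay at both ends, one level with the higher Tw2pos library and the other far below, so that means of 1283 ± 143 and 960.2 ± 590.2 (SD, n = 2 each) did not differ beyond the spread (log2 fold change 0.56, SE 0.43, limma adjusted p = 0.332). The answer depended on a single library: without Tw2neg replicate 1 Cdh13 passed as higher (1.23, adjusted p = 0.00624), and without Tw2neg replicate 2 the value was −0.11 (adjusted p = 0.623).

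All 3 delta-1 protocadherins passed, 2 as higher and 1 as lower. Pcdh7 (chromosome 5, 57717967 to 58133230, plus strand), first known from brain and heart, had 1169 and 1176 normalised counts in Tw2pos libraries, against 448 and 282 in Tw2neg libraries. The Tw2pos libraries were nearly equal and stood above both others, with means of 1173 ± 4.85 and 365 ± 117 (SD, n = 2 each) and a log2 fold change of 1.72 with an SE of 0.25 (adjusted p = 0.00479 by limma). Its exons overlap those of the antisense gene 4932441J04Rik by 2235 bases, and whether reads were counted by strand is not given; that gene had 7.65 and 1.21 normalised counts in Tw2pos libraries and 0 in both Tw2neg libraries. The exons of 5 other members touch an antisense gene over shorter stretches, from 23 bases in Cdh8 to 436 bases in Pcdh8. Pcdh9, a protocadherin of the brain (chromosome 14, 93013410 to 93890679, minus strand), had 145 and 91.7 normalised counts in Tw2pos libraries, against 56.1 and 32.0 in Tw2neg libraries. The groups did not overlap, at 118.5 ± 38.0 and 44.0 ± 17.1 (SD, n = 2 each), and the log2 fold change was 1.42 (SE 0.41, limma adjusted p = 0.0379), a call lost in 5 of the other settings, among them library total scaling (0.98, adjusted p = 0.0899) and the fits without Tw2neg replicate 2 (1.03, adjusted p = 0.108), Tw2pos replicate 1 (1.09, adjusted p = 0.25) or Tw2pos replicate 2 (1.75, adjusted p = 0.0732). Pcdh1 (chromosome 18, 38185914 to 38212053, minus strand), known from airway epithelium, had 131 and 104 normalised counts in Tw2pos libraries, against 609.9 and 233 in Tw2neg libraries. It was lower in both Tw2pos libraries, at 118 ± 19.5 and 421 ± 267 (SD, n = 2 each), with a log2 fold change of −1.68 with an SE of 0.46 (adjusted p = 0.0328 by limma). The size of that difference rested on which Tw2neg library was used: it was −0.99 without replicate 1 (adjusted p = 0.035) and −2.38 without replicate 2 (adjusted p = 0.00779), and the call was lost in 4 of the other settings, without Tw2pos replicate 2 (−1.51, adjusted p = 0.0965), without a variance trend (adjusted p = 0.0615), under quantile normalisation (adjusted p = 0.0513) and without a filter (adjusted p = 0.065).

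Of the 5 delta-2 protocadherins 4 could be tested. Pcdh18 (chromosome 3, 49743296 to 49757325, minus strand), whose tail binds the adaptor Dab1, had 915 and 783 normalised counts in Tw2pos libraries, against 332 and 196 in Tw2neg libraries. It was higher in both Tw2pos libraries, at 849 ± 93.8 and 264 ± 96.1 (SD, n = 2 each), where the log2 fold change was 1.73 (SE 0.29; adjusted p = 0.0069 with limma). Pcdh10 (chromosome 3, 45378398 to 45435623, plus strand), which guides axons in the forebrain, was higher at a much lower level, with 26.8 and 30.2 normalised counts in Tw2pos libraries and 8.95 and 10.4 in Tw2neg libraries. Its means of 28.5 ± 2.39 and 9.67 ± 1.02 (SD, n = 2 each) gave a log2 fold change of 1.47 with an SE of 0.43 (adjusted p = 0.0404 by limma), and 5 of the other settings lost the call, DESeq2 (adjusted p = 0.103), library total scaling (1.04, adjusted p = 0.0995) and the fits without Tw2pos replicate 1 (adjusted p = 0.168) or replicate 2 (adjusted p = 0.221) among them. Pcdh17 (chromosome 14, 84443563 to 84539002, plus strand), known from synapses and axons, went the other way, with 57.4 and 48.2 normalised counts in Tw2pos libraries and 245 and 148 in Tw2neg libraries. The groups were well apart, at 52.8 ± 6.45 and 196 ± 68.5 (SD, n = 2 each), and the log2 fold change was −1.84 (SE 0.34, limma adjusted p = 0.00944). Pcdh19 (chromosome X, 133582860 to 133688987, minus strand), a partner of N-cadherin and a human epilepsy gene, had 748 and 731 normalised counts in Tw2pos libraries and 638 and 258 in Tw2neg libraries. Its groups did not overlap, but the gap to the nearer Tw2neg library was small beside the distance between the Tw2neg libraries, and it did not pass (means 739.6 ± 12.4 and 448 ± 268, SD, n = 2 each; log2 fold change 0.86, SE 0.41, limma adjusted p = 0.145); without Tw2neg replicate 1 it passed as higher (1.51, adjusted p = 0.0031), and without Tw2neg replicate 2 the value was 0.21 (adjusted p = 0.257).

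The remaining members with enough reads were Pcdh12, Pcdh20 and Cdh23. Pcdh12, a protocadherin of endothelial junctions, had 75.2 and 43.4 normalised counts in Tw2pos libraries and 291 and 63.2 in Tw2neg libraries. Its groups overlapped and it did not pass (log2 fold change −1.23, SE 0.72, limma adjusted p = 0.219), while DESeq2 on recovered reads (adjusted p = 0.035) and the fit without Tw2neg replicate 2 (−2.33, adjusted p = 0.0222) called it lower; without Tw2neg replicate 1 the value was −0.14 (adjusted p = 0.806). Pcdh20, another protocadherin of the brain, had 63.7 and 35.0 in Tw2pos libraries and 32.5 and 20.0 in Tw2neg libraries (0.86, SE 0.46, adjusted p = 0.188). Cdh23 (chromosome 10, 60302748 to 60696490, minus strand), which forms the upper part of the tip link of inner-ear hair cells, had 88.0 and 54.3 normalised counts in Tw2pos libraries, against 697 and 199.9 in Tw2neg libraries. It was lower in both Tw2pos libraries, at 71.1 ± 23.8 and 448 ± 351 (SD, n = 2 each), with a log2 fold change of −2.42 with an SE of 0.60 (adjusted p = 0.0243 by limma), which was −1.52 without Tw2neg replicate 1 (adjusted p = 0.0335), −3.32 without Tw2neg replicate 2 (adjusted p = 0.00895) and −2.07 without Tw2pos replicate 2, where the call was lost (adjusted p = 0.0576), as it was without a filter (adjusted p = 0.0534). Endothelial markers summed to 6339 and 4542 normalised counts in Tw2pos libraries, against 31751 and 11404 in Tw2neg libraries, with 6 of 7 lower. Leukocyte markers (8 of 8 tested) and red cell precursor markers (3 of 3 tested) were lower too. Among all genes tested 20.0% were lower, and no list was tested against that share. Against Pax7pos cells the endothelial sum went the other way, at 512 and 367 CPM in Tw2pos libraries and 119 CPM in the Pax7pos library. The part of any of these markers in the values of Pcdh1, Pcdh12, Pcdh17 and Cdh23 was not tested. Cdh5, the endothelial cadherin left out by the rule, had 1778 and 1229 normalised counts in Tw2pos libraries, against 9276 and 2894 in Tw2neg libraries. Cdh15, the M-cadherin of satellite cells, had 134 and 98.9 in Tw2pos libraries, against 487 and 208 in Tw2neg libraries.

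The other 12 members were below a mean of 10 normalised counts and entered no test. Cdh7 and Cdh12, type II cadherins of the nervous system, had no read in any of the 4 Twist2-line libraries, and a count of 0 allows up to 3 reads in a library, for counting error alone. Only 3 of the 12 reached 10 reads in a library, each in Tw2neg. Cdh17, the cadherin of liver and intestine, had 1 and 5 reads in Tw2pos libraries and 10 and 28 in Tw2neg libraries. Pcdh15, which forms the lower part of the tip link with Cdh23, had 0 and 2 reads in Tw2pos libraries and 7 and 18 in Tw2neg libraries, and Cdh10 had 2 and 3 in Tw2pos libraries and 10 and 9 in Tw2neg libraries. Tw2neg replicate 2 thus had the most Cdh17 and Pcdh15, whereas most other members were higher in Tw2neg replicate 1. The remaining 7, Cdh8, Cdh16, Cdh18, Cdh20, Cdh22, Cdh26 and Pcdh8, had between 0 and 9 reads in every library.

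Compared per length of merged exons, a few members made up most of the summed level of the 32 members in Tw2pos cells. Among them Cdh11 led with 231 normalised counts per kilobase, followed by Pcdh18 (158), Cdh13 (114), Pcdh7 (111), Cdh2 (93.6) and Pcdh19 (70.7). The step to the next member, Cdh24 at 18.1 normalised counts per kilobase, was larger than any spread between the 2 libraries there. Cdh13 and Pcdh7 could not be ordered, since the Cdh13 libraries (105 and 123) enclosed those of Pcdh7 (110 and 111). In Tw2neg cells the order was Cdh13 (85.5), Pcdh18 (49.2), Pcdh1 (47.9), Pcdh19 (42.8), Cdh1 (34.5), Pcdh7 (34.4) and Cdh11 (34.4), and neighbours in it did not differ beyond the spread between the libraries. The 6 members that led in Tw2pos cells, which were picked by these levels, took 85.1% and 84.3% of the summed level per kilobase over all members in Tw2pos libraries, against 53.0% and 51.3% in Tw2neg libraries. Cdh11 alone took 24.2% and 26.1% in Tw2pos libraries and 6.68% and 7.58% in Tw2neg libraries. These shares leave out cadherins outside the members, of which Cdh5 alone had 358 normalised counts per kilobase in Tw2pos cells.

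The unlabelled libraries differed from each other across nearly the whole family. Of the 20 members tested 17 were higher in Tw2neg replicate 1 than in replicate 2, against 49.6% of all genes tested. Their median ratio of replicate 1 to replicate 2 was 1.86, and that of all genes was 0.995. At least a 2-fold excess in replicate 1 was seen for 9 of the 20 members and for 10.0% of all genes: Cdh3 (4.79), Pcdh12 (4.61), Cdh23 (3.49), Cdh4 (2.67), Pcdh1 (2.62), Cdh13 (2.54), Pcdh19 (2.47), Cdh19 (2.38) and Cdh2 (2.11). Only Pcdh10, Cdh24 and Cdh9 were lower in replicate 1. Summed marker lists moved with this, with ratios of 3.00 for pericytes and smooth muscle, 2.78 for endothelium, 2.31 for tendon, 2.04 for Schwann cells, 1.83 for satellite cells, 1.43 for fibro-adipogenic cells, 1.42 for myofibres, 1.27 for red cell precursors and 0.856 for leukocytes, and their part in the members' ratios was not tested. Between the Tw2pos libraries the members showed no such common shift, with a median ratio of 1.02. Single members did differ there, such as Pcdh12 (1.73), Cdh23 (1.62) and, the other way, Cdh4 (0.334). Marker sums of Tw2pos replicates 1 and 2 were 14633 and 8327 normalised counts for pericytes and smooth muscle and 6339 and 4542 for endothelium. Fibro-adipogenic, satellite cell, leukocyte and myofibre sums were higher in Tw2pos replicate 2. Between Tw2pos and Tw2neg cells the log2 fold change of Cdh11 was 3.20 without Tw2neg replicate 1 and 2.40 without replicate 2. For Cdh23 it was −1.52 and −3.32 in the same fits. Cdh24, which was lower in replicate 1, moved the other way, at −0.72 and −0.24.

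**Figure D3:**
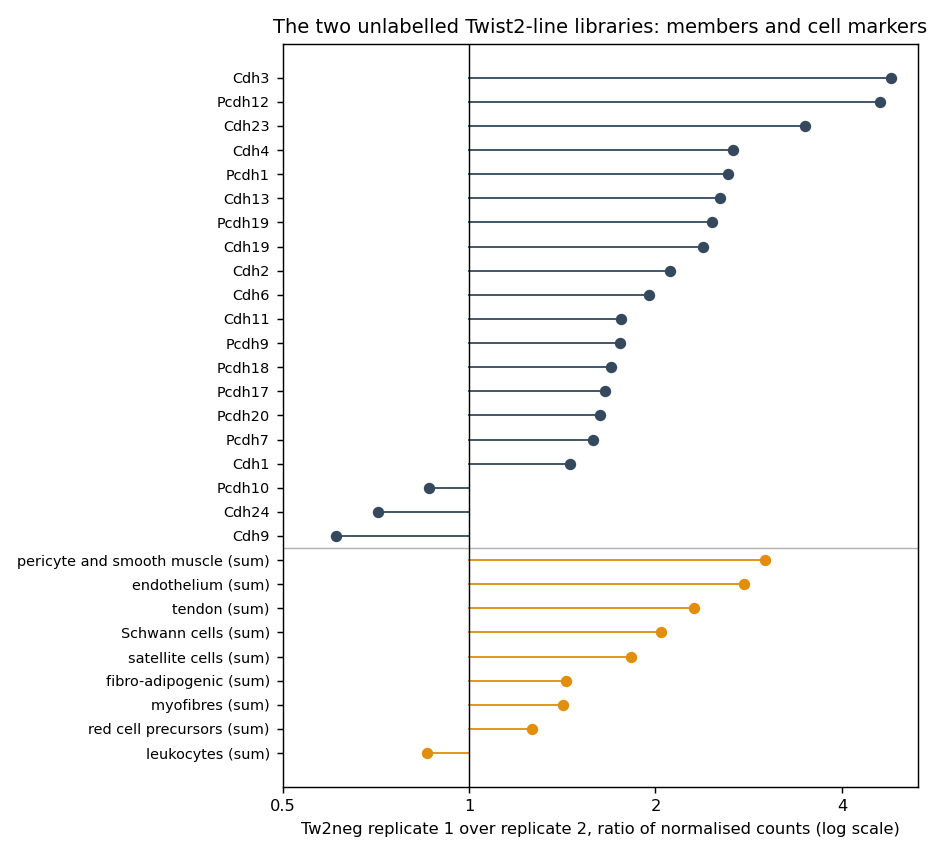
Ratio of Tw2neg replicate 1 to replicate 2 in normalised counts (horizontal, log scale) for the 20 members with a mean of at least 10 (dark points) and for summed marker lists of other cell types (orange points). A ratio of 1 is the vertical line; 17 members lie to its right, up to 4.79 for Cdh3, and leukocyte markers lie to its left at 0.856.

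The Pax7 line is covered by the CPM table, which holds 4939 genes that reached 10 CPM in no fewer than 3 libraries and were at least 2-fold away from Tw2neg in some other group. In it are 10 members: Cdh1, Cdh2, Cdh11, Cdh13, Cdh23, Pcdh1, Pcdh7, Pcdh17, Pcdh18 and Pcdh19. The choice of genes by such differences raises the share of calls, so the members are read against the table's own background. Cdh1 had a mean under 10 CPM and was not tested, which left 9 members among 4790 genes. The comparisons that follow share libraries with each other and with those above, and the lone Pax7pos and Pax7neg libraries were assumed to vary like the Twist2-line libraries.

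**Figure D4:**
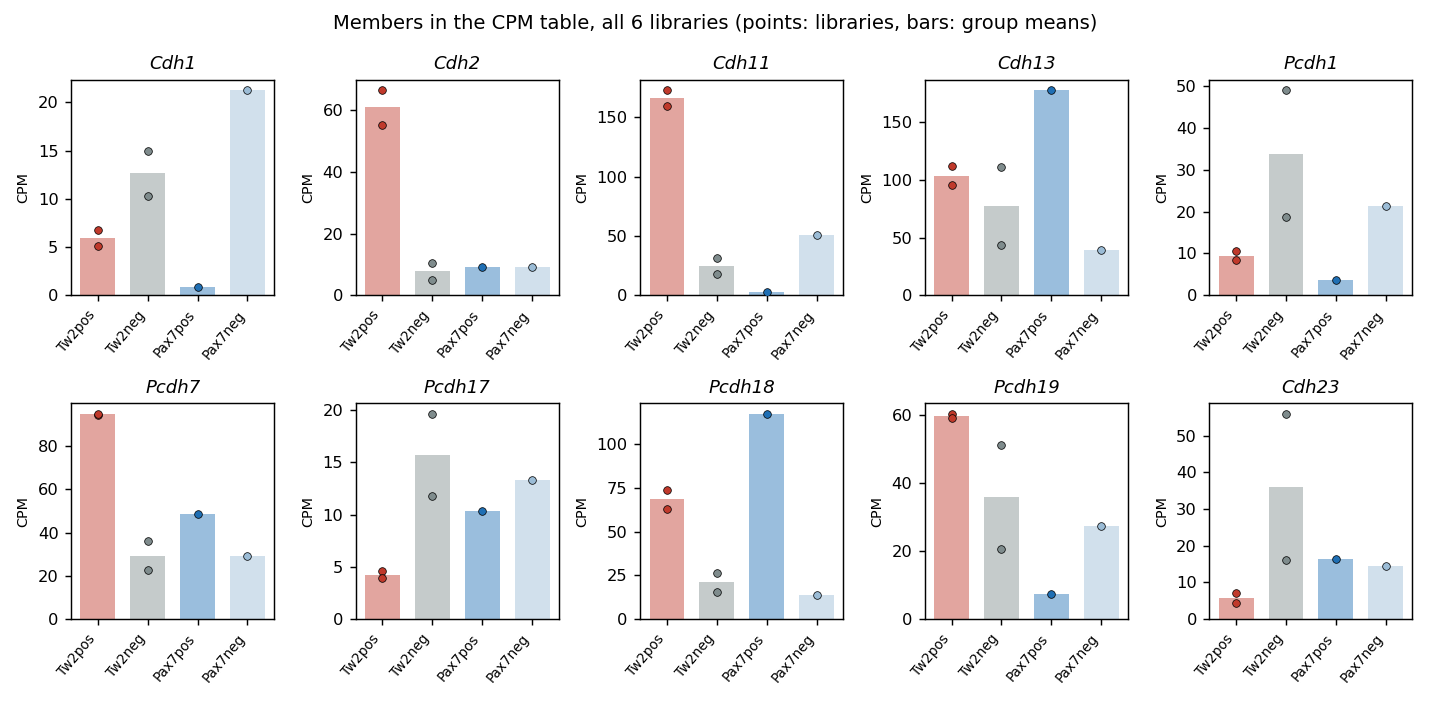
CPM (vertical, linear, own scale in each panel) of the 10 members in the CPM table in the 4 groups. Points are libraries (2 for Tw2pos and Tw2neg, 1 for Pax7pos and Pax7neg) and bars are group means; Cdh2 and Cdh11 are highest in Tw2pos, and Pcdh18 and Cdh13 in Pax7pos.

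Against labelled cells of the Pax7 line, Tw2pos cells had much more cadherin-11, N-cadherin and Pcdh19. Cdh11 had 159.8 and 173 CPM in Tw2pos libraries, against 2.72 CPM in the Pax7pos library, from 26 reads. The Pax7pos value was far below both Tw2pos libraries, and the log2 fold change on the CPM plus 1 scale was 5.49 (SE 0.40, limma adjusted p = 4.70e-05). Pcdh19 had 60.4 and 59.1 CPM in Tw2pos libraries, against 7.31 CPM in the Pax7pos library (log2 fold change 2.87, SE 0.51, limma adjusted p = 0.00256). Cdh2 had 66.6 and 55.3 CPM in Tw2pos libraries, against 9.09 CPM in the Pax7pos library (2.61, SE 0.47, adjusted p = 0.0028). These 3 of 9 members passed, all as higher, and they kept the call in each of the 9 other settings. That is 33.3% of the members, near the 33.9% of all genes tested that passed as higher. In either direction 59.6% of all genes tested passed, and whether the shares differ was not tested. The median log2 fold change was 0.95 over the 9 members, beside 0.41 for all genes tested. Fibro-adipogenic markers summed to 83699 and 102393 CPM in Tw2pos libraries, against 2960.2 CPM in the Pax7pos library. Gsn was the largest part of the Tw2pos sum, with 530363 and 676094 normalised counts, ahead of Col1a1 with 301492 and 350942. Each of the 6 markers of that list passed as higher in Tw2pos cells. Satellite cell markers summed to 653 and 668 CPM in Tw2pos libraries, against 3696 CPM in the Pax7pos library. Most of the Tw2pos satellite sum was Chodl, with 5936 and 5880 of 8149 and 8347 normalised counts. Of 6 satellite markers tested 5 were lower in Tw2pos cells, and Chodl did not pass (0.43, limma adjusted p = 0.448). Over all genes tested 1229 of 4790 were lower. The part of these markers in the members' differences was not tested.

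The other 6 members did not pass, and 4 of them were lower in value in Tw2pos cells. Pcdh18 had 73.9 and 63.2 CPM in Tw2pos libraries, against 118 CPM in the Pax7pos library (−0.77, SE 0.39, limma adjusted p = 0.118), and Cdh13 had 95.5 and 112 CPM in Tw2pos libraries, against 177 CPM in the Pax7pos library (−0.78, SE 0.51, adjusted p = 0.221). Both labelled fractions thus held these members at a high level. Cdh23 had 7.11 and 4.38 CPM in Tw2pos libraries, against 16.4 CPM in the Pax7pos library (−1.40, SE 0.68, adjusted p = 0.110), and Pcdh17 had 4.63 and 3.90 CPM in Tw2pos libraries, against 10.3 CPM in the Pax7pos library (−1.11, SE 0.47, adjusted p = 0.0744). Pcdh7 had 94.4 and 95.01 CPM in Tw2pos libraries, against 48.7 CPM in the Pax7pos library, and just missed the threshold (0.95, SE 0.36, adjusted p = 0.0538). Pcdh1 had 10.6 and 8.38 CPM in Tw2pos libraries, against 3.66 CPM in the Pax7pos library (1.16, SE 0.57, adjusted p = 0.109). The 95% intervals of these 6 differences reach as far as −2.98 for Cdh23 and 2.48 for Pcdh1 on the log2 scale, so that sizeable differences are compatible with these libraries. Without either Tw2neg library the fold changes stayed the same, while the spread then came from the Tw2pos pair alone. Cdh1 had 5.15 and 6.82 CPM in Tw2pos libraries, against 0.836 CPM in the Pax7pos library, from 8 reads.

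No member passed between the unlabelled fractions. Cdh11 had 31.3 and 17.8 CPM in Tw2neg libraries, against 51.3 CPM in the Pax7neg library, and was the 1 member with an unadjusted p under 0.05 (log2 fold change −1.08, SE 0.40, limma adjusted p = 0.246). In this comparison 0.230% of the genes tested passed (11 genes, 749 at an unadjusted p under 0.05), so that 0 of 9 members is no departure from the background. Cdh2 was low in both, with 10.6 and 4.99 CPM in Tw2neg libraries and 9.32 CPM in the Pax7neg library, and Pcdh7 had 36.0 and 22.6 CPM in Tw2neg libraries and 29.2 CPM in the Pax7neg library. The log2 fold changes of the other members tested lay between 0.18 for Pcdh17 and 1.01 for Cdh23. Pcdh17 had 19.7 and 11.8 CPM in Tw2neg libraries and 13.3 CPM in the Pax7neg library, and Pcdh19 had 51.2 and 20.6 CPM in Tw2neg libraries and 27.3 CPM in the Pax7neg library. Pcdh1 had 49.0 and 18.6 CPM in Tw2neg libraries and 21.3 CPM in the Pax7neg library, and Cdh13 had 111 and 43.4 CPM in Tw2neg libraries and 39.5 CPM in the Pax7neg library. For Pcdh17, Pcdh19 and Pcdh1 the Pax7neg library lay between the Tw2neg libraries, and for Cdh13, Cdh23 and Pcdh18 it lay below both. Cdh23 had 55.97 and 15.98 CPM in Tw2neg libraries and 14.5 CPM in the Pax7neg library, and Pcdh18 had 26.6 and 15.7 CPM in Tw2neg libraries and 13.6 CPM in the Pax7neg library. E-cadherin, not tested in this table, had 15.02 and 10.3 CPM in Tw2neg libraries and 21.3 CPM in the Pax7neg library. Outside the members the unlabelled fractions did differ in satellite cell genes. Cdh15 had 39.1 and 16.6 CPM in Tw2neg libraries and 0.643 CPM in the Pax7neg library (log2 fold change 4.02). Pax7 had 45.7 and 14.8 CPM in Tw2neg libraries and 0.402 CPM in the Pax7neg library. Here too the Tw2neg libraries gave different answers. The log2 fold change of Cdh11 was −1.48 without replicate 1 and −0.69 without replicate 2, and that of Cdh23 was 0.14 and 1.88.

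Within the Pax7 line there is 1 library for each fraction, so no test was made and a log2 difference of CPM plus 10 of at least 2 was taken as different. By that size Pcdh18 was higher in Pax7pos cells, at 118 CPM against 13.6 CPM in Pax7neg cells (log2 difference 2.44), and Cdh11 was lower, at 2.72 CPM against 51.3 CPM (−2.27). Over all its genes, 3.83% were past that size as higher and 14.6% as lower, which 1 of 10 members in each direction does not clearly depart from. T-cadherin came near that size, at 177 CPM in Pax7pos cells and 39.5 CPM in Pax7neg cells (1.92), and E-cadherin had 0.836 CPM in Pax7pos cells and 21.3 CPM in Pax7neg cells (−1.53). Pcdh1 (−1.20), Pcdh19 (−1.11), Pcdh7 (0.58), Pcdh17 (−0.20), Cdh23 (0.11) and Cdh2 (−0.02) differed by less. Cdh15, a gene of satellite cells outside the members, had 539.5 CPM in Pax7pos cells and 0.643 CPM in Pax7neg cells. Fibro-adipogenic markers summed to 2960.2 CPM in Pax7pos cells and 44483.5 CPM in Pax7neg cells, tendon markers to 205 CPM in Pax7pos cells and 8237 CPM in Pax7neg cells, and endothelial markers to 119 CPM in Pax7pos cells and 883 CPM in Pax7neg cells; their part in the values of Cdh11 and the other members was not tested.

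Whether the label went with a different cadherin change in each line was tested as the difference between the lines, Tw2pos against Tw2neg minus Pax7pos against Pax7neg. It passed for 3 of 9 members, all more positive in the Twist2 line, beside 36.2% of all genes tested and 23.4% in that direction. For Cdh11 the label went with more RNA in the Twist2 line and less in the Pax7 line, a log2 difference of 6.58 (SE 0.56, limma adjusted p = 0.000179). Cdh2 was higher with the label in the Twist2 line and level between the fractions of the Pax7 line, a log2 difference of 2.92 (SE 0.67, adjusted p = 0.013), which was lost under quantile normalisation (adjusted p = 0.0778) and without Tw2pos replicate 1 (adjusted p = 0.0627). For Pcdh19 the log2 difference was 2.62 (SE 0.72, adjusted p = 0.0249), which was lost with a pseudocount of 10 (adjusted p = 0.051) and under quantile normalisation (adjusted p = 0.211). Pcdh18 was higher with the label in both lines in value, and its difference between lines did not pass (−1.33, SE 0.55, adjusted p = 0.092). Nor did those of Cdh23 (−2.41, adjusted p = 0.0853), Cdh13 (−1.57, adjusted p = 0.123), Pcdh17 (−1.29, adjusted p = 0.162), Pcdh7 (0.98, adjusted p = 0.168) and Pcdh1 (0.67, adjusted p = 0.524). In the fits without a Tw2neg library the spread came from the Tw2pos pair alone and the differences changed as well. Pcdh1, for example, was at 1.35 without Tw2neg replicate 1 and at −0.00066 without Tw2neg replicate 2.

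Of 10 catenins and linkers of the tails of classical cadherins tested in the Twist2 line, 1 was higher in Tw2pos cells than in Tw2neg cells, 2 were lower and 7 did not pass, with a median log2 fold change of 0.07. Of all genes tested 18.7% were higher and 20.0% lower, and no test of the group against that share was made. Beta-catenin (Ctnnb1) averaged 8372 normalised counts in Tw2pos cells and 6129 in Tw2neg cells (0.47, limma adjusted p = 0.202). Arvcf, a relative of p120-catenin, was higher (1.08, adjusted p = 0.0464), and Pkp4, another armadillo protein, was lower (−0.98, adjusted p = 0.0292). Ctnnd2, the delta-catenin of neurons, was lower too, at 0 and 1.21 normalised counts in Tw2pos libraries and 17.1 and 23.99 in Tw2neg libraries (adjusted p = 0.00911).

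The large atypical cadherins, which include the Fat and Dachsous proteins of planar polarity, passed in both directions. Of 9 genes of this list tested, 4 were higher in Tw2pos cells, 2 were lower and 3 did not pass. Among all genes tested 18.7% were higher and 20.0% lower, and the group was not tested against that share. The list's median log2 fold change of 1.75 is the value of Fjx1 (limma adjusted p = 0.0578), which is not itself a cadherin. Celsr2 (−0.22) and Fat2 (−0.43) did not pass either. Fat3 had 784 and 754 normalised counts in Tw2pos libraries, against 90.3 and 40.8 in Tw2neg libraries (3.64, limma adjusted p = 0.00189), and Fat1 averaged 3723 in Tw2pos cells and 876 in Tw2neg cells (2.19, adjusted p = 0.00755). Fat4 (1.77, adjusted p = 0.0296) and its ligand Dchs1 (1.78, adjusted p = 0.0309) were higher as well. Celsr1, a core planar polarity protein, was lower, at 30.6 and 19.3 normalised counts in Tw2pos libraries and 226 and 275 in Tw2neg libraries (−3.31, adjusted p = 0.00174), and so was Celsr3 (−3.44, adjusted p = 0.0126). Against Pax7pos cells Fat4 (3.48, adjusted p = 0.00165) and Dchs1 (1.49, adjusted p = 0.0498) were higher and Fat1 did not pass (1.04, adjusted p = 0.0852).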

How the data were processed

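RNA sequencing of 6 sorted samples in 4 groups was used in processed form. Per the submitters' processing notes, TopHat2 2.0.0, DESeq2 1.6.3 and the mouse build GRCm38/mm10 were used; the sources used here do not say how reads were counted or whether by strand. A first deposited table gives a normalised signal for the 4 Twist2-line libraries, called normalised counts; 100% of its values are whole multiples of 1 read within a tolerance of 0.01, so reads were recovered. A second deposited table gives CPM for both lines, with Twist2 groups as the authors' means, and deposited log2 fold changes, which equal the log2 ratio of CPM plus 1. For each Twist2 library CPM was computed again from its reads. Whole reads could also be recovered for Pax7pos and were not used for Pax7neg.

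Tw2pos and Tw2neg were compared with limma 3.58.1 (R 4.3.3), a variance trend included, on log2 of the normalised count plus 1; 14155 genes had a mean of at least 10. The comparisons with the Pax7 line used log2 of CPM plus 1 in all 6 libraries, for 4790 genes whose mean reached 10 CPM. P-values were Benjamini-Hochberg adjusted over all genes tested, with 2 residual degrees of freedom and 4 and 5.75 prior ones. Alternatives were another pseudocount, no filter, other scalings, no trend, a replicate block, edgeR 4.0.16 and DESeq2 1.42.0 on recovered reads, and each Twist2 library left out. The scripts were tested on simulated data. The members, marker lists and pathway lists were chosen with earlier results of these data known. Members with a mean of at least 10 normalised counts are given in full, the others by range, and those with 10 or more reads in a library by value; genes outside the members come from the lists alone, and 1 gene of those lists is not reported here. Annotation is GENCODE M21, and genes with an antisense or near-identical copy are uncertain. Python 3.11.15, pandas 2.3.3, numpy 2.4.6, scipy 1.17.1 and matplotlib 3.10.9 made the tables and figures.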

Additional observations from a re-analysis of the deposited data

Results flagged for a closer look

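For 3 members the labelled against unlabelled difference itself differed between the Twist2 and the Pax7 line by the interaction term of the limma fit on log2 of CPM plus 1. The log2 difference between the lines was 6.58 for Cdh11 (adjusted p = 0.000179), 2.92 for Cdh2 (adjusted p = 0.013) and 2.62 for Pcdh19 (adjusted p = 0.0249). These are 3 of the 9 members tested, beside 36.2% of all genes tested, so the count is near the background. Under quantile normalisation the calls of Cdh2 (adjusted p = 0.0778) and Pcdh19 (adjusted p = 0.211) were lost. Cdh11 had 166 ± 9.22 CPM in Tw2pos cells and 24.6 ± 9.60 in Tw2neg cells (SD, n = 2 each), beside 2.72 CPM in the Pax7pos library and 51.3 in the Pax7neg library. Cdh2 had 61.0 ± 7.98 CPM in Tw2pos cells and 7.78 ± 3.96 in Tw2neg cells, beside 9.09 CPM in the Pax7pos library and 9.32 in the Pax7neg library. Pcdh19 had 59.7 ± 0.989 CPM in Tw2pos cells and 35.9 ± 21.6 in Tw2neg cells, beside 7.31 CPM in the Pax7pos library and 27.3 in the Pax7neg library. The Pax7 libraries have no replicate, and the genes of this table were picked by the authors for differences from Tw2neg.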

How the results depend on the processing

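Cdh2, Cdh11, Pcdh7, Pcdh17 and Pcdh18 kept their call between Tw2pos and Tw2neg cells in every other setting tried for them. Of 249 values of single members under other settings in that comparison, 211 kept direction and side of the threshold, 21 lost the call, 14 gained one and 3 reversed; the counts were 65 of 81 kept and 15 gained against Pax7pos, 61 of 72 kept and 6 gained between the unlabelled fractions, and 57 of 72 kept, 4 lost and 9 gained for the difference between lines. Reversed values belonged to members that had not passed, in the same comparison, with all libraries. In Tw2pos against Tw2neg Cdh6 was at 0.27 under quantile normalisation and ran from −0.61 to 0.30 over the fits without a library, and Cdh13 from −0.11 to 1.23. Against Pax7pos, Pcdh1 was at −0.10 under quantile normalisation. In Tw2neg against Pax7neg the fits without a library ran from −0.79 to 0.17 for Cdh2, −0.19 to 1.16 for Pcdh1, −0.36 to 0.29 for Pcdh7, −0.16 to 0.53 for Pcdh17 and −0.39 to 0.88 for Pcdh19. In the difference between lines Pcdh1 was at −0.72 under quantile normalisation and ran from −0.00066 to 1.35.

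Between Tw2pos and Tw2neg, 5470 genes and 10 members passed. Over fewer genes, the 6-library fit on the CPM table called 2975 genes; without a filter, over more genes, 5 members passed; fits that left out a library called 2578 to 7370 genes and 5 to 12 members. edgeR called 5342 genes and 11 members and DESeq2 5296 and 11. Library total scaling called 1607 genes higher and 5257 lower, and quantile normalisation 3213 higher and 2339 lower, with a median log2 fold change of all genes of −0.49 and 0.10. Against Pax7pos, quantile normalisation called 1847 genes (852 higher, 995 lower) and put the median log2 fold change of all genes at −0.16, and fits without a library called 1635 to 3738 genes and 3 to 9 members. Between unlabelled fractions 3 genes passed without a filter and 1 gene without a trend, with a pseudocount of 10 or under quantile normalisation, and 43 to 1038 genes and 0 to 5 members without a library. For the difference between lines quantile normalisation called 958 genes and 1 member, with that median at −0.25, and fits without a library 935 to 3106 genes and 2 to 8 members. Other causes of these changes were not tested. edgeR was not run for the last 2 comparisons, and for Tw2pos against Pax7pos it used 5 libraries, without Pax7neg.

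The labels do not say that replicate numbers pair Tw2pos with Tw2neg libraries. Deviations of same-numbered libraries from their group means had r = 0.263 across 14155 genes, which are not independent. With the replicate block 6627 genes and 14 members passed (8 higher, 6 lower), and no member lost its call. Depth limits the 12 members below a mean of 10, and 2 libraries a group limit all tests.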

Other observations

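Of 8 transcriptional repressors of E-cadherin 5 passed as higher in Tw2pos cells against Tw2neg cells (limma, adjusted over all genes tested) and 3 did not pass, with a median log2 fold change of 0.91, beside 18.7% higher among all genes tested; the group was not tested against that share. The 5 were Twist2 (2.67), Twist1 (2.66), Tcf4 (1.15), Snai1 (1.05) and Zeb1 (0.78). Twist2 is the gene whose Cre drove the label. Against Pax7pos cells Twist1 was higher (4.68), Snai2 (−1.89) and Zeb2 (−0.94) were lower and Tcf4 did not pass. Among 6 nectins and related genes, which start junctions that cadherins then fill, only Pvrl3 (nectin-3) passed as higher in Tw2pos cells against Tw2neg cells (1.40, adjusted p = 0.0144) and the list's median was −0.22. Against Pax7pos cells Pvr (−2.39), Pvrl1 (−1.40) and Pvrl3 (−1.26) were lower, 3 of the 4 tested. Over all genes tested there 1229 of 4790 passed as lower, and the group was not tested against that share.

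Of 6 proteases that cut cadherins from the cell surface, 1 passed as lower in Tw2pos against Tw2neg cells, Psen2 (−0.75, limma adjusted p = 0.0229), with a median of −0.10. Over all genes tested in that comparison 18.7% were higher and 20.0% lower, and no list named here was tested against those shares. Against Pax7pos cells Adam15 was higher (2.91). In the rest of the cadherin superfamily 11 genes could be tested between Tw2pos and Tw2neg cells: the calsyntenin Clstn1 (1.37) and the desmosomal Dsc2 (2.15) were higher, Clstn3 (−1.52) was lower and 8 did not pass, with a median of −0.03. Of the marker lists, 4 of 6 fibro-adipogenic and 5 of 5 tendon genes were higher in Tw2pos against Tw2neg cells, as were 3 of 5 myofibre genes. Leukocyte markers were lower for 8 of 8 and red cell precursor markers for 3 of 3 tested. Pericyte and smooth muscle markers passed for 0 of 7, and satellite cell markers for 1 higher and 2 lower of 7. The marker counts, too, stand beside 18.7% higher and 20.0% lower among all genes tested.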
